A study of Mus musculus with 9 samples.

Results

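The genes described here are the subunits of the proteasome, its immunoproteasome form, its activators and its assembly chaperones, in sorted splenic B cells. Members were taken by symbol, as genes named Psma to Psmg with a number, and by a mean of at least 1 FPKM (read density per length of transcript and per size of the library) over the 9 libraries. Of the 24346 gene symbols listed, 49 matched the pattern and 47 passed the level. Psma8, a testis form of an α subunit, and Psmb11, the catalytic subunit of the thymus, had means of 0.115 and 0.0859 FPKM and were left out, whereas the lowest member, Psme4, had a mean of 4.97 FPKM.

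RNA-seq was performed on follicular B cells of 8-week-old mice, FO B (Young), follicular B cells of 50-week-old mice, FO B (Aged), and age-associated B cells of 50-week-old mice, ABCs (Aged), with 3 libraries in each group. All mice were wild-type C57BL/6 with no transgene and no treatment. The gate of FO B cells included B220hi CD43- CD23+ CD21lo and that of ABCs B220hi CD43- CD23- CD21lo CD11b+ CD11c+, so a group is a gate and not a clone. The labels do not tie FO B (Aged) and ABC libraries to the same mouse, and p-values measure the spread between these libraries.

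The proteasome degrades proteins that carry ubiquitin. Its core particle is a barrel of α and β rings in which 3 β subunits cut the substrate, and its regulatory particle recognises ubiquitin, removes it and threads the protein into the barrel. In lymphocytes, and in other cells after interferon-γ, the catalytic subunits Psmb6, Psmb7 and Psmb5 are replaced during assembly by Psmb9, Psmb10 and Psmb8, which gives the immunoproteasome, known for cutting peptides that suit MHC class I molecules.

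The sort markers followed the labels in part. Fcer2a, which encodes CD23, was at 697, 716 and 728 FPKM in FO B (Aged) and at 4.15, 6.95 and 0.463 FPKM in ABCs, and Itgax (CD11c), Itgam (CD11b) and Tbx21 (T-bet) were higher in ABCs. Spn, which encodes the CD43 that both gates excluded, was at 62.6, 54.1 and 86.7 FPKM in ABCs and at 2.75, 3.09 and 3.32 FPKM in FO B (Aged). Cr2, which encodes the CD21 that both gates took as low, also differed. It was at 166, 127 and 159 FPKM in FO B (Aged) and at 4.93, 8.39 and 0.745 FPKM in ABCs. Of the 8 B lineage markers, 2 passed as higher in ABCs and 2 as lower (log2 fold changes from -0.74 to 1.06), beside 19.4% and 16.5% of all genes. The 8 markers summed to 8694 to 9085 FPKM in FO B (Aged) and to 7688 to 9897 FPKM in ABCs. ABC replicate 3 had the lowest of these sums, and also the highest sum of cell cycle markers (80.8 FPKM) and the highest Psmb9. Without this library Psmb9 stayed higher in ABCs than in FO B (Aged) (log2 fold change 0.73, adjusted p = 0.000284 in limma). Depth was close in all libraries, at about 8060000 to 9800000 mapped reads as recovered from the steps in low FPKM values, and 10032 to 10445 genes per library reached 1 FPKM.

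Proteasome genes were abundant in all 3 groups. The 47 members together summed to 7299 ± 134 FPKM in FO B (Young), 7649 ± 219 in FO B (Aged) and 8099 ± 271 in ABCs (SD, n = 3), which was 1.06%, 1.10% and 1.14% of all FPKM. Psmb8 was the highest member, with a mean of 799 FPKM over the 9 libraries. Subunits that stand at equal number in the particle did not have equal FPKM. Between genes, FPKM also depends on the transcript lengths used, which are not given. Sequence shared with other genes limits Psma5 and an overlapping gene limits Psma2, as described below. The 7 α ring genes ranged from 126.7 FPKM for Psma5 to 385 FPKM for Psma2, a 3.04-fold range, the 6 ATPases of the regulatory particle base (Psmc1 to Psmc6) ranged 1.92-fold from 70.4 FPKM for Psmc6 to 135.6 FPKM for Psmc5, and the 8 lid genes ranged 2.54-fold from 54.0 FPKM for Psmd3 to 136.9 FPKM for Psmd8.

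The main comparison, of ABCs with FO B cells of aged mice, changed a minority of the members. With limma on log2(FPKM + 1), 12 of 47 members passed an FDR of 0.05 (25.5%), 7 higher and 5 lower in ABCs, against 35.9% of all 10412 genes tested, of which 19.4% were higher and 16.5% lower. The median log2 fold change was 0.03 over the members and -0.01 over all genes. In 16 members (34.0%) the 3 ABC libraries did not overlap the 3 FO B (Aged) libraries, against 52.6% of all genes, with 9 above (19.1%, against 26.3%) and 7 below (14.9%, against 26.3%). The share of members called was thus below that of all genes. Higher in ABCs were Psmb9, Psmd2, Psmd14, Psma4, Psmb1, Psmd10 and Psmb8, and lower were Psme2b, Psme4, Psmd4, Psmb6 and Psme3.

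The catalytic subunits held the largest rise. Psmb9 (β1i, also LMP2), which takes the place of Psmb6 (β1, the caspase-like site), was at 331, 339 and 305 FPKM in FO B (Young), at 441, 391 and 411 FPKM in FO B (Aged) and at 679, 690 and 796 FPKM in ABCs. The 3 groups did not overlap, and ABC replicate 3 was the highest. Psmb9 was 1.74-fold higher in ABCs than in FO B (Aged) by the ratio of means (log2 fold change 0.80 ± 0.09 SE, adjusted p = 0.000596), the largest log2 fold change of the 47 members. Psmb6 moved the other way, with 251, 250.4 and 260.2 FPKM in FO B (Aged) and 216, 228 and 211 FPKM in ABCs, and 252, 262 and 254 FPKM in FO B (Young). All ABC libraries lay below all FO B libraries for Psmb6 (log2 fold change -0.22 ± 0.06 against FO B (Aged), adjusted p = 0.0273).

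**Figure D1:**
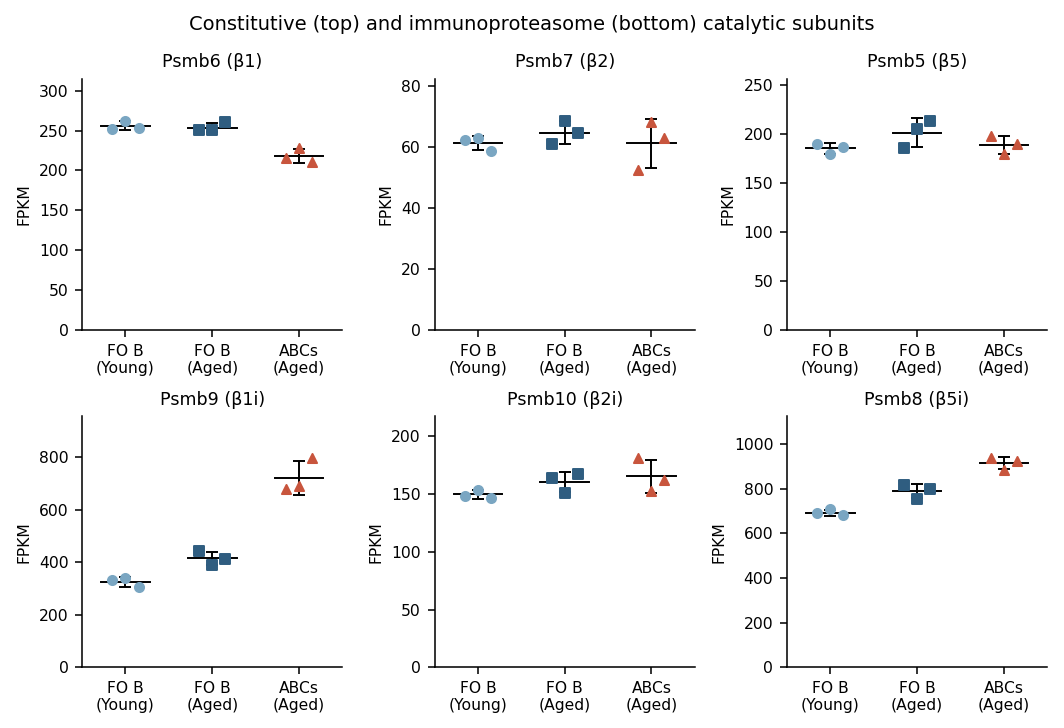
FPKM of the 3 constitutive catalytic subunits (top) and of the immunoproteasome subunits that replace them (bottom) in each library. Points are libraries, horizontal lines are means and bars are ± SD (n = 3); the ABC points for Psmb9 lie between 679 and 796 FPKM and the FO B (Aged) points between 391 and 441 FPKM.

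Psmb8 (β5i, also LMP7), which replaces the chymotrypsin-like Psmb5 (β5), was at 689, 708 and 682 FPKM in FO B (Young), 817, 755 and 799 FPKM in FO B (Aged) and 936, 882 and 923 FPKM in ABCs. The groups again did not overlap, with a log2 fold change of 0.21 ± 0.07 between ABCs and FO B (Aged) (adjusted p = 0.0439). Psmb5 itself was at 185, 205 and 213 FPKM in FO B (Aged) and 198, 180 and 189 FPKM in ABCs, where the groups overlapped (-0.09 ± 0.08, adjusted p = 0.394, and 0.09 after scaling to the upper quartile). Neither subunit of the trypsin-like site passed the test. Psmb10 (β2i, also MECL-1) was at 164, 151 and 167 FPKM in FO B (Aged) and 181, 152 and 162 FPKM in ABCs (0.04 ± 0.08, adjusted p = 0.740), and Psmb7 (β2) was at 61.1, 68.7 and 64.7 FPKM and at 52.4, 68.4 and 63.0 FPKM (-0.09 ± 0.11, adjusted p = 0.549). The sign of Psmb10 turned with quantile normalization (-0.03) and that of Psmb7 with scaling to the upper quartile (0.09).

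The FPKM share of the immunoproteasome gene in each pair was then compared, since a ratio within a library needs no scaling between libraries. This is a share of mRNA, and proteasome protein and assembled particles were not measured in these libraries. Psmb9 made up 56.8%, 56.3% and 54.6% of Psmb9 plus Psmb6 in FO B (Young), 63.7%, 61.0% and 61.2% in FO B (Aged), and 75.9%, 75.2% and 79.1% in ABCs. The means were 55.9% ± 1.15, 62.0% ± 1.52 and 76.7% ± 2.08 (SD, n = 3), with no overlap between any groups. The difference was 14.7 percentage points between ABCs and FO B (Aged) and 6.07 points between the FO B groups. Psmb8 made up 78.9% ± 0.755 of Psmb8 plus Psmb5 in FO B (Young), 79.7% ± 1.59 in FO B (Aged) and 82.9% ± 0.290 in ABCs, and only ABCs stood apart from the other groups. Psmb10 made up 70.9% ± 0.487, 71.2% ± 2.23 and 72.9% ± 4.32 of Psmb10 plus Psmb7, and all groups overlapped. An exact two-sided permutation test of 3 against 3 libraries cannot go below p = 0.1, which all non-overlapping comparisons reached; over the 9 tests the adjusted p was then 0.18. The overlapping comparisons had exact permutation p from 0.5 to 0.9.

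**Figure D2:**
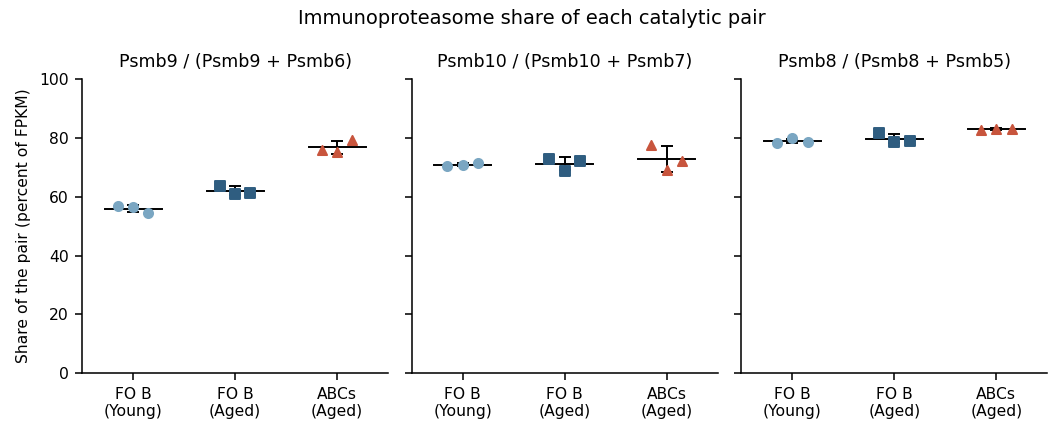
Share of each catalytic pair, in percent of the summed FPKM of the pair, that came from the immunoproteasome subunit. Points are libraries with mean and SD (n = 3); the share of Psmb9 runs from 54.6% to 79.1% over the libraries, while the shares of Psmb10 overlap in all groups.

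In the summed FPKM of the 3 immunoproteasome subunits, FO B (Young) had 1167 ± 33.2, FO B (Aged) 1365 ± 63.5 and ABCs 1801 ± 78.1 (SD, n = 3), a ratio of 1.32 ± 0.084 between ABCs and FO B (Aged). The 3 constitutive subunits summed to 503 ± 3.65, 520 ± 20.9 and 468 ± 6.9 FPKM, a ratio of 0.901 ± 0.039. Within the immunoproteasome set, the FPKM ratio of Psmb9 to Psmb8 was 0.469 ± 0.019 in FO B (Young), 0.524 ± 0.014 in FO B (Aged) and 0.790 ± 0.069 in ABCs, and all 3 ABC ratios lay above the FO B ratios.

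Psmb9 lies at 34181987 to 34187764 on the minus strand of chromosome 17 (GRCm38, GENCODE M21), in the MHC region, and overlaps Tap1, a subunit of the transporter that carries peptides into the endoplasmic reticulum, on the plus strand. The kit does not mark strand, so reads in the overlap cannot be assigned to either gene. Psmb8 lies close by at 34197721 to 34201454 on the plus strand. The promoter windows of Psmb9 and Tap1 in RefSeq (250 bases before to 50 after the start) share 275 bases. The RefSeq start of Psmb9 lies inside the GENCODE span given above, so the stretch printed for it is before the start by RefSeq and within the gene by GENCODE. The bases before the RefSeq starts of Psmb9 and of Psmb6 (GRCm38.p6) are shown because the share of this pair differed most between the groups. The capitals mark CCAAT, read on the other strand, in Psmb9, and TGACNNNGC, an antioxidant response element, in Psmb6.
Psmb9, chr17:34187331-34187580, minus strand: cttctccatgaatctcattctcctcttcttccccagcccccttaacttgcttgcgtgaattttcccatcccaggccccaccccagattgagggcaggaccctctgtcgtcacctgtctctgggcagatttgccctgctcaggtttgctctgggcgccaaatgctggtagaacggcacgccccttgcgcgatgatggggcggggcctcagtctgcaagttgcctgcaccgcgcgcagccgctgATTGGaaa
Psmb6, chr11:70525107-70525356, plus strand: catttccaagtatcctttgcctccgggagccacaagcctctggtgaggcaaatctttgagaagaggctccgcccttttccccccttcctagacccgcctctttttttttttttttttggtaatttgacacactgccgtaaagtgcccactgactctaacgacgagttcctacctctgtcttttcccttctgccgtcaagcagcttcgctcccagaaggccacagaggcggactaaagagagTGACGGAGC

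Tap1 was at 171, 144 and 157 FPKM in FO B (Aged) and at 203, 188 and 209 FPKM in ABCs, without overlap (log2 fold change 0.35 ± 0.08, adjusted p = 0.0161). Its call was lost without FO B (Aged) replicate 2 or 3 or ABC replicate 1 (adjusted p up to 0.0521). The FPKM ratio of Psmb9 to Tap1 was 2.41 ± 0.166 in FO B (Young), 2.64 ± 0.074 in FO B (Aged) and 3.61 ± 0.235 in ABCs. All 3 ABC ratios lay above the FO B ratios.

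In the core particle outside the catalytic sites, 2 of 11 genes passed the test, both higher in ABCs, beside the 35.9% of all genes called and 19.4% called higher. Psma4, which encodes α3 of the outer ring that gates entry, was at 132, 134 and 137 FPKM in FO B (Aged) and at 175, 151 and 163 FPKM in ABCs (0.27 ± 0.07, adjusted p = 0.0227). Psmb1, a β subunit without a catalytic site, was at 316, 321 and 323 FPKM and at 388, 376 and 371 FPKM (0.24 ± 0.06, adjusted p = 0.0147). The other α ring genes had log2 fold changes down to -0.06, and Psma2 was at 382, 330 and 518 FPKM in ABCs, of which the last, replicate 3, was the highest of the 9 libraries.

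The base and lid of the regulatory particle hold 6 ATPases, 3 other base genes and 8 lid genes. Of these, 2 passed as higher in ABCs and 1 as lower, beside 19.4% and 16.5% of all genes. Psmd14, the deubiquitinase of the lid (Rpn11), was at 95.8, 97.6 and 91.3 FPKM in FO B (Aged) and at 118, 118 and 112 FPKM in ABCs (0.29 ± 0.06, adjusted p = 0.0104). Psmd2 (Rpn1), a base scaffold that binds ubiquitin and shuttle receptors, was at 81.6, 76.4 and 82.0 FPKM and at 98.0, 96.3 and 105 FPKM (0.31 ± 0.07, adjusted p = 0.00936). Both were higher in all ABC libraries. Psmd4 (Rpn10), a ubiquitin receptor of the base, was at 117, 91.5 and 106 FPKM in FO B (Aged) and at 81.1, 73.5 and 83.3 FPKM in ABCs, lower without overlap (-0.39 ± 0.10, adjusted p = 0.0223). None of the 6 base ATPases, which unfold the substrate, passed the test in limma (log2 fold changes from -0.14 to 0.11), and their summed FPKM had a ratio of 0.963 ± 0.052. The lid as a whole summed to 661 ± 6.3 FPKM in FO B (Aged) and 719 ± 11 FPKM in ABCs.

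Among the chaperones that build the particle, Psmd10 (gankyrin), a base assembly factor, was at 42.8, 47.0 and 46.9 FPKM in FO B (Aged) and at 52.1, 52.0 and 57.4 FPKM in ABCs (0.23 ± 0.08, adjusted p = 0.0463). The core assembly chaperones Psmg1 to Psmg4 did not pass the test (from -0.03 to 0.26), with Psmg4 at 104, 91.8 and 129 FPKM in ABCs and 86.7, 82.0 and 100.1 FPKM in FO B (Aged). After scaling to the upper quartile Psmg4 passed as higher (0.44, adjusted p = 0.0239). Psmf1, the inhibitor PI31, had a log2 fold change of 0.07.

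The activators, which open the core particle without ubiquitin, had log2 fold changes below 0 in all 5 genes in the FPKM as deposited, and 3 passed the test as lower, beside 16.5% of all genes. Psme1 and Psme2, the PA28 subunits that interferon-γ induces together with the immunoproteasome, did not pass. Psme1 was at 460, 409 and 461 FPKM in FO B (Aged) and at 405, 380 and 396 FPKM in ABCs (-0.17 ± 0.07, adjusted p = 0.107), and Psme2 was at 421, 373 and 441 FPKM and at 391, 360 and 375 FPKM (-0.13 ± 0.08, adjusted p = 0.237). After scaling to the upper quartile the log2 fold changes were 0.01 and 0.05, while after quantile normalization they were -0.29 and -0.25 and both passed as lower in ABCs (adjusted p = 0.0137 and 0.0375). The ratio of Psme1 to Psme2 was 1.04, 1.08 and 1.05 in FO B (Young), FO B (Aged) and ABCs.

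Psme4 (PA200), a nuclear activator, was at 6.36, 5.61 and 4.45 FPKM in FO B (Aged) and at 3.46, 3.91 and 3.29 FPKM in ABCs (-0.50 ± 0.15, adjusted p = 0.0347). Psme3 (PA28γ), also nuclear, was at 91.5, 92.1 and 90.0 FPKM and at 77.0, 82.3 and 81.4 FPKM (-0.18 ± 0.06, adjusted p = 0.0477). Psme2b, a copy of Psme2 on chromosome 11, was at 53.9, 38.8 and 52.2 FPKM and at 33.6, 28.2 and 29.1 FPKM (-0.64 ± 0.14, adjusted p = 0.0102). The value of Psme2b is uncertain, because 51.7% of its stretches of read length also occur in Psme2, and the authors' mapping could split such reads. Of the other members whose levels are described, 23.4% of such stretches in Psma5, 21.7% in Psmb5 and 18.3% in Psme2 also occur in other annotated genes, as do 7.96% in Psmb8, 6.33% in Psmb7, 4.52% in Psmd2, 3.76% in Psma4 and 2.7% in Psmb9, and under 1% in the rest. Reads in an overlap cannot be assigned without strand. Psme2b overlaps 2 genes on its own strand (Gm12185 and 9930111J21Rik1), Psma2 overlaps AW209491 on its own strand, and on the other strand Psmb7 overlaps Nek6, Psme1 overlaps Emc9, Psma4 overlaps AY074887, Psma5 overlaps 1700010K24Rik, Psmb8 overlaps Gm20496, Psmb10 overlaps Gm16156 and Psme4 overlaps Gm12103.

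**Figure D3:**
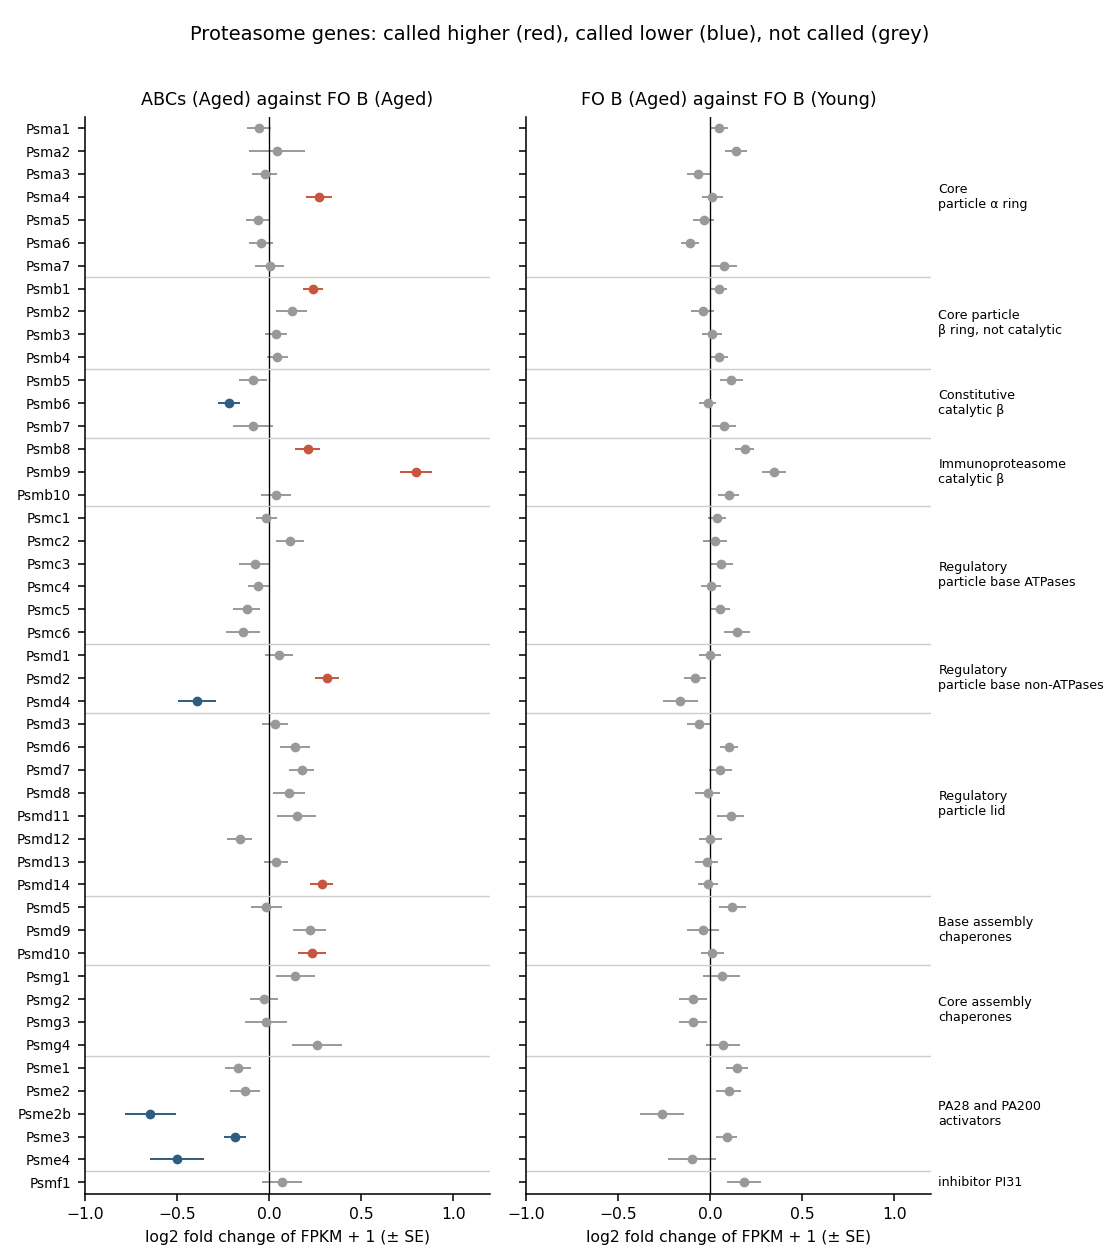
log2 fold change of FPKM + 1 with its SE for the 47 members, by structural group, between ABCs and FO B (Aged) (left) and between FO B (Aged) and FO B (Young) (right). Red and blue points passed an FDR of 0.05 as higher or lower (7 and 5 members on the left, 0 on the right), and grey points did not.

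At an FDR of 0.05, Psmb9, Psmd2 and Psmd14 kept their calls under all 17 alternative fits, 6 of which each left out 1 library, and at an FDR of 0.01 Psmb9 and Psmd2 passed and Psmd14 did not. Psme2b kept its call without any single library, whereas Psmb8, Psmd10 and Psme3 lost theirs whichever of the 6 libraries was left out. Psmb1 lost its call without FO B (Aged) replicate 1 (adjusted p up to 0.0612) or ABC replicate 1 (FDR from limma), and after quantile normalization (0.178). Psma4 and Psmb6 lost theirs without any FO B (Aged) library or without ABC replicate 1 (adjusted p up to 0.0798 and 0.0916), Psmd4 without FO B (Aged) replicate 1 or 3 or ABC replicate 1 or 2 (up to 0.0721), and Psme4 without FO B (Aged) replicate 1 or 2 or ABC replicate 1 or 3 (up to 0.116). After scaling to the upper quartile, the split of 7 higher and 5 lower members became 11 and 0. This scaling put the median of all genes at 0.15 on the log2 scale. It ended all 5 lower calls, with limma adjusted p of 0.250 for Psmd4, 0.858 for Psmb6 and 0.986 for Psme3. The split was 4 and 8 after quantile normalization, and 5 and 5 after scaling every library to the same sum. Counts over all genes shifted as well. Of 10412 genes, 2020 were higher and 1719 lower as deposited, and 1743 and 2145 after quantile normalization. After the upper quartile they were 2455 and 601 of 10424, and after the same sum 1891 and 1954 of 10822. The median of the members less that of all genes was 0.04 as deposited and 0.06 after scaling to the upper quartile. After quantile normalization it was 0.00047.

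The comparison of FO B (Aged) with FO B (Young) asks about age within the same gate. None of the 47 members passed an FDR of 0.05 (limma), against 0.464% of 10122 genes, and 4 members (8.51%) had an unadjusted limma p under 0.05, against 12.8% of all genes. These 4 were higher in aged mice (against 6.96% of all genes), but after scaling to the upper quartile 1 member was higher and 7 were lower at this level. The libraries did not overlap in 7 members (14.9%), 6 above (12.8%, against 9.64% of all genes) and 1 below (2.13%, against 8.96%), against 18.6% of all genes in either direction. Psmb9 had a log2 fold change of 0.35 ± 0.06 (adjusted p = 0.0816) and Psmb8 one of 0.19 ± 0.05 (adjusted p = 0.174), with all FO B (Aged) libraries above all FO B (Young) libraries in both genes. The other catalytic subunits overlapped, with Psmb10 at 0.10 ± 0.06 (adjusted p = 0.505), Psmb5 at 0.12 ± 0.06 (adjusted p = 0.491), Psmb7 at 0.08 ± 0.06 (adjusted p = 0.663) and Psmb6 at -0.01 ± 0.05 (adjusted p = 0.942). Psme1 was at 390, 403 and 404 FPKM in FO B (Young), below its FO B (Aged) values (0.15 ± 0.06, adjusted p = 0.347), and Psme2 overlapped (0.10 ± 0.07, adjusted p = 0.575). Scaling to the upper quartile moved the median of all genes by -0.12, and with it the median of the members from 0.04 to -0.09.

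ABCs were also set beside FO B (Young). This comparison shares the ABC libraries with the first, so its values are given side by side and not as further support. Here 13 of 47 members passed (27.7%), 9 higher and 4 lower, against 40.7% of 10438 genes, of which 21.6% were higher and 19.1% lower. In 22 members (46.8%) the libraries did not overlap, against 55.3% of all genes, with 13 above (against 27.7%) and 9 below (against 27.6%). The split was 2 and 3 after scaling to the upper quartile and 2 and 10 after quantile normalization. It was 5 and 6 after scaling every library to the same sum. Over all genes, the splits in this order were 1851 and 928 of 10505, 1920 and 2439 of 10438, and 2105 and 2352 of 10854. Psmb9 was 2.22-fold higher by the ratio of means (log2 fold change 1.15 ± 0.08, adjusted p = 8.15e-05), and Psmb8 was 1.32-fold higher (0.40 ± 0.06, adjusted p = 0.00165). Both passed under all alternatives. Psmb1 (0.29 ± 0.05), Psma4 (0.29 ± 0.08), Psmd14 (0.27 ± 0.06), Psmd10 (0.25 ± 0.07) and Psmd2 (0.23 ± 0.07) were higher here too, joined by Psmd6 (0.24 ± 0.08) and Psmd7 (0.23 ± 0.07), lid subunits of which Psmd7 is the partner of Psmd14. Lower were Psme2b (-0.91 ± 0.09), Psme4 (-0.60 ± 0.11), Psmd4 (-0.55 ± 0.08) and Psmb6 (-0.23 ± 0.06). The adjusted p of the higher members after Psmb8 ran from 0.00446 to 0.0420, and that of the lower members from 0.00032 to 0.0164. Psmb1 and Psmd14 kept their calls without any single library. They lost them after scaling to the upper quartile (limma adjusted p = 0.110 and 0.121) and after quantile normalization. Psmd6 and Psmd7 lost their calls without any FO B (Young) library or without ABC replicate 1 or 3 (adjusted p up to 0.116 and 0.125), Psmd2 without FO B (Young) replicate 1 or 3 or ABC replicate 1 or 3 (up to 0.103), Psma4 without FO B (Young) replicate 1 or 3 or ABC replicate 1 (up to 0.0864), Psmd10 without any FO B (Young) library (up to 0.0901), and Psmb6 without FO B (Young) replicate 1 or 2 or ABC replicate 1 (up to 0.0664). Psme3, at 91.3, 82.8 and 82.7 FPKM in FO B (Young), did not pass (-0.09 ± 0.07, adjusted p = 0.306), nor did Psmb10 (0.14 ± 0.07, adjusted p = 0.176), Psmb5 (0.03 ± 0.06, adjusted p = 0.737), Psmb7 (-0.01 ± 0.10, adjusted p = 0.946), Psme1 (-0.02 ± 0.06, adjusted p = 0.801) or Psme2 (-0.03 ± 0.06, adjusted p = 0.717). After quantile normalization Psme1 (-0.17, adjusted p = 0.0437) and Psme2 (-0.19, adjusted p = 0.0385) passed as lower.

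**Figure D4:**
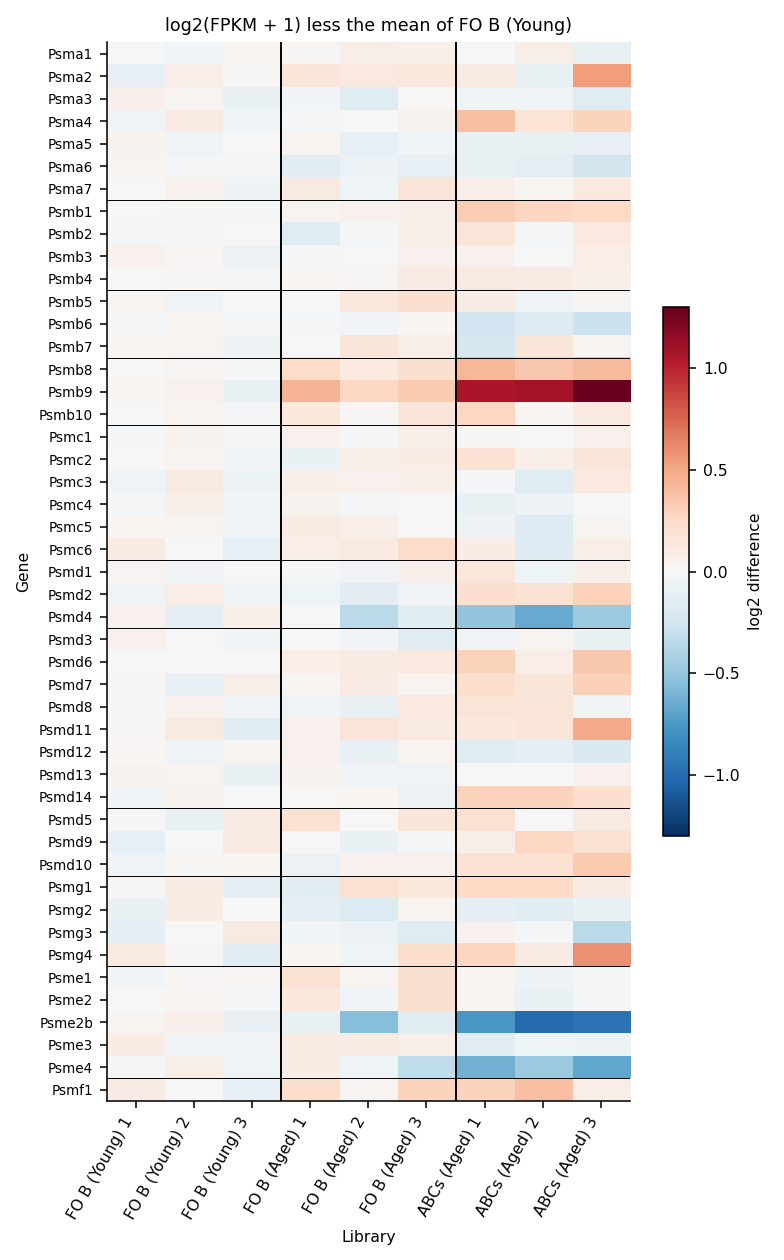
log2(FPKM + 1) of the 47 members in each of the 9 libraries, less the mean of the 3 FO B (Young) libraries. Rows are genes by structural group and columns are libraries; the darkest red cells are Psmb9 in ABCs and the darkest blue cells are Psme2b in ABCs, while most rows are pale in all libraries.

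Regulators of these genes were read next, from a list of 9 in which 8 reached the level for the test. Between ABCs and FO B (Aged), 2 were higher and 1 lower, beside 19.4% and 16.5% of all genes. Nlrc5, a transactivator of MHC class I genes and of genes that serve them, was at 15.4, 11.03 and 11.5 FPKM in FO B (Aged) and at 25.5, 21.4 and 26.4 FPKM in ABCs (0.91 ± 0.14, adjusted p = 0.00289), and was at 8.78, 10.1 and 10.5 FPKM in FO B (Young). Irf8, an interferon regulatory factor of B cells and myeloid cells, was at 329.8, 302 and 293 FPKM and at 469.8, 438 and 446 FPKM (0.55 ± 0.07, adjusted p = 0.00116). Irf9, the DNA-binding part of the complex activated by type I interferon, was lower, at 78.3, 67.0 and 74.5 FPKM against 57.3, 45.5 and 55.0 FPKM (-0.47 ± 0.11, adjusted p = 0.0119, and 0.0511 without FO B (Aged) replicate 1). Irf9 also lost its call with no filter on low values and after scaling to the upper quartile (limma adjusted p = 0.139). Irf1, a factor known to act on Psmb9, was at 144, 145 and 154 FPKM in FO B (Young), 230, 189 and 202 FPKM in FO B (Aged) and 187, 167 and 184 FPKM in ABCs. Irf1 was the only one of the 8 that passed between the FO B groups (0.48 ± 0.08, adjusted p = 0.0404), beside 0.464% of all genes. It lost this call without 5 of the 6 libraries, with adjusted p up to 0.190. Of 11 other alternative fits it passed in 5, with limma adjusted p up to 0.331 with no filter on low values. Nfe2l1, a factor that raises genes of constitutive proteasome subunits when the proteasome is inhibited, did not pass. It was at 21.5, 17.7 and 20.6 FPKM in FO B (Aged) and 23.1, 21.4 and 24.5 FPKM in ABCs.

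In the steps on either side of the proteasome, 4 of 11 genes of MHC class I peptide supply and loading were higher in ABCs than in FO B (Aged) and 0 lower. Over all genes 19.4% were higher and 16.5% lower. The median log2 fold change of the 11 genes was 0.25, against -0.01 over all genes. The 4 higher genes were H2-K1 (0.59 ± 0.07), H2-D1 (0.52 ± 0.08) and B2m (0.41 ± 0.08), which form the class I molecule, and Tap1. With no filter on low values B2m (adjusted p = 0.339), H2-D1 (0.120) and Tap1 did not pass, and B2m did not pass after quantile normalization (0.0727). Of 10 ubiquitin genes and shuttle receptors, 2 were higher and 2 lower, beside the same 19.4% and 16.5%. Ubqln2, a shuttle receptor, was among the higher genes (0.37 ± 0.12, adjusted p = 0.0450). Rad23b, a shuttle receptor that brings ubiquitylated proteins to the proteasome, was lower (-0.35 ± 0.10, adjusted p = 0.0281). Ubqln2 lost its call without any library but FO B (Aged) replicate 2, and Rad23b without any but ABC replicate 3 (adjusted p up to 0.135 and 0.0900). Rad23b also lost its call after scaling to the upper quartile (limma adjusted p = 0.327). Both lost it with the replicate number as a block. Ubqln2 lost it as well with stricter or no filtering of low values, after scaling to the same sum and after quantile normalization. None of the 7 proteasome genes without a Psm symbol that were found, such as Pomp, the maturation factor of the core particle, passed the test in limma (log2 fold changes from -0.12 to 0.09). Pomp was at 191, 203 and 227 FPKM in FO B (Aged) and at 223, 202 and 206 FPKM in ABCs.

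Markers of other cells and states differed between these groups as well. Of 8 cell cycle genes, 5 passed as higher in ABCs, beside 19.4% of all genes. The summed level of the 8 was 23.5 to 28.4 FPKM in FO B (Aged) and 40.3 to 80.8 FPKM in ABCs. Of 5 plasma cell markers tested, 3 were higher, beside the same 19.4%. The 6 listed plasma cell markers summed to 129 to 148 FPKM in FO B (Aged) and to 191 to 225 FPKM in ABCs. The 8 T cell markers summed to 0.440 to 1.13 FPKM and to 5.19 to 38.4 FPKM, of which Cd3g alone gave 9.63, 37.0 and 4.93 FPKM in ABCs, while Cd3e was at or below 0.0996 FPKM in all libraries. The 6 NK cell markers summed to 0.600 to 1.01 FPKM and to 24.5 to 38.0 FPKM, nearly all of it Prf1, while Ncr1 did not exceed 0.0882 FPKM. Macrophage and monocyte markers summed to 7.82 to 14.8 FPKM and to 16.7 to 23.0 FPKM. The 5 neutrophil markers found summed to 4.13 to 25.5 FPKM and to 2.47 to 3.71 FPKM, with S100a8 and Elane at 0 in all ABC libraries. Their part in the levels of proteasome genes was not tested, and in these bulk libraries fewer cells of a type and less RNA per cell cannot be told apart.

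The same promoter windows were found in RefSeq for 40 of the 47 members and were searched on both strands for 5 motifs. CCGGAAG, an Ets element, was in 14 (35.0%), against 9.93% of the 27025 genes with a window and 23.0% of the 7945 of these with a mean of at least 1 FPKM. The interferon-stimulated response element was in 5 (12.5%), namely Psmb3, Psmd4, Psmd9, Psme1 and Psmg4, against 3.99% and 3.86%. TGACNNNGC was in 6 (15%, against 14.0% and 17.3%), TTCNNNGAA, a Stat element, in 3 (7.5%, against 9.55% and 8.48%), among them Psmb8 and Psmd2, and CCAAT in 13 (32.5%, against 41.1% and 43.6%). CCAAT and CCGGAAG overlapped at 1 place each in Psma6 and Psmc2, and no other different motifs overlapped in the members. In Psmd14, CCAAT sites on opposite strands overlapped each other. These matches are letters in a window and are given with no test. Of the 12 members that passed between ABCs and FO B (Aged), all but Psmb1 had a window, and Psmd2, Psmd4, Psme3 and Psme4 held CCGGAAG, which is shown in capitals with up to 10 bases on each side, to compare a member that was higher in ABCs with the 3 that were lower.
Psmd2, chr16:20651616-20651642, plus strand: ccgcagggcgCTTCCGGtctggaggac
Psmd4, chr3:95042723-95042749, minus strand: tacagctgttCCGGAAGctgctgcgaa
Psme3, chr11:101316096-101316122, plus strand: ggcacaaggcCCGGAAGctccgacagc
Psme3, chr11:101316205-101316231, plus strand: tgtgacgcaaCTTCCGGcgtgagcggc
Psme4, chr11:30771712-30771738, plus strand: tggccccgccCCGGAAGtgacttgagg
The site began 26 bases before the RefSeq start in Psmd2, where it is read on the other strand, 125 before it in Psmd4, 53 before it in Psme4, and both before and just after the start in Psme3. The GENCODE span of Psme4 begins within the stretch shown.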

How the data were processed

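Sorted splenic B cells were measured by bulk RNA-seq in 9 libraries, 3 per group as the labels give them. Per the labels, full-length cDNA was made with a SMART-Seq HT kit, libraries with a Nextera XT kit, and the submitters' processing notes name mm10, TopHat2 2.1.1, Bowtie2 2.2.8, SAMtools 0.1.18 and Cuffdiff 2.2.1. The methods of the study name Cufflinks and other versions of these tools, and the gene annotation is not given in the sources used here. What the authors deposited for each library is a list of gene symbols with FPKM, without counts.

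A linear model of log2(FPKM + 1) was fitted in R 4.3.3 by limma 3.58.1, using lmFit and then eBayes with its variance trend. Only the 6 libraries compared entered a fit, as did only genes whose mean in them reached 1 FPKM, and adjusted p-values are Benjamini-Hochberg over all genes tested. A call needed an FDR below 0.05 and no minimum fold. Fold changes on this scale understate the change of low genes. Shares were compared with an exact two-sided permutation test over 20 orders. Depth was approximated from low genes with 1 annotated transcript, of which 75.2% to 79.8% fell within 0.1 of a whole read. Positions come from GENCODE M21 and promoter windows from RefSeq on GRCm38.p6. Named members are the 6 paired catalytic subunits, Psme1, Psme2 and all further members called in a comparison, with at most 3 called genes of a pathway list, besides genes named for a contrast after their values were seen (Psma2, Psmg4, Pomp, Nfe2l1 and Tap1). The members and lists were chosen with earlier results of these data known. Alternatives were other pseudocounts, filters, scalings and thresholds, eBayes without a trend, all 9 libraries in 1 fit, the replicate number as a block, and leaving out each library. Python 3.11.15, numpy 2.4.6, pandas 2.3.3, scipy 1.17.1 and matplotlib 3.10.9 were used. The other measurements of the study were not analysed here, and some items are not reported here.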

Additional observations from a re-analysis of the deposited data

How the results depend on the processing

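The count of members called between ABCs and FO B (Aged), 7 higher and 5 lower, was 2 and 0 at an FDR under 0.01, 4 and 2 with no filter on low values, 3 lower with a mean of at least 5 FPKM and with eBayes without a trend, 11 and 0 after scaling to the upper quartile, and 4 and 8 after quantile normalization. Leaving out 1 library gave 3 (without FO B (Aged) replicate 1 or ABC replicate 1) to 6 higher and 1 (without the same libraries) to 3 lower. Over all genes, 1254 were higher and 818 lower of 10412 at an FDR under 0.01. With no filter they were 1539 and 1045 of 24346. The lower genes were 1414 of 8057 with a mean of at least 5 FPKM, and 1659 of 10412 without a trend. Without 1 library, 1496 to 1963 of all genes were higher and 1054 to 1680 lower. Between ABCs and FO B (Young), 9 higher became 4 at an FDR under 0.01, 5 after scaling to the same sum, and 2 after the upper quartile or quantile normalization, which gave 10 lower. Leaving out 1 library gave 4 (without FO B (Young) replicate 1 or 3) to 10 higher. Over all genes the higher count was 1440 of 10438 at an FDR under 0.01, and 1745 to 2212 without 1 library. Between the FO B groups 0 members were called under all alternatives. The summed ratio of the lid went to 1.06 with scaling to the same sum.

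The replicate numbers were not shown to pair the libraries: the correlations of same-numbered libraries were 0.0845, -0.0190 and 0.108 between ABCs and FO B (Aged), and the labels name no shared mouse or day. Libraries with different numbers had correlations from -0.108 to 0.0589, below those of replicates 1 and 3. Between FO B (Aged) and FO B (Young), which come from mice of different ages, correlations ran from -0.105 to 0.157. Whether the numbers pair the libraries is not settled by these values. With the replicate number as a block, 6 higher and 3 lower members were called between ABCs and FO B (Aged). Between ABCs and FO B (Young), 5 higher and 4 lower were called. Over all genes the block gave 1891 higher and 1557 lower of 10412 in the first comparison, and 1947 and 1561 of 10438 in the second. The block ended the calls of Psmb8, Psmd10, Psmb6 and Psme3 and added that of Psmg4 in the first, and ended those of Psma4, Psmd2, Psmd6 and Psmd10 in the second.

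Shares whose groups overlapped changed sign with 1 library. That of Psmb10 ran from -0.672 (without ABC replicate 1) to 3.59 points between ABCs and FO B (Aged), from -0.377 (without the same library) to 3.88 between ABCs and FO B (Young), and from -0.533 (without FO B (Aged) replicate 1; -0.144 without replicate 3) to 1.56 between the FO B groups. That of Psmb8 between the FO B groups ran from -0.120 (without FO B (Aged) replicate 1) to 1.32 points.

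Members that were not called changed sign as follows, on the log2 scale. With the upper quartile, ABCs against FO B (Aged) gave Psmb5 0.092, Psmb7 0.091, Psme1 0.013 and Psme2 0.050, the FO B groups gave Psmb5 -0.013, Psmb7 -0.051, Psmb10 -0.028 and Psme2 -0.028, and ABCs against FO B (Young) gave Psmb7 0.040, Psme1 0.031 and Psme2 0.022. Quantile normalization gave Psmb10 -0.030 in the first comparison and Psmb5 -0.066 in the last, where the same sum gave Psmb5 -0.018. Leaving out 1 library, in the first comparison Psmb7 ran from -0.17 to 0.019 and Psmb10 from -0.028 to 0.095. In the second Psmb6 ran from -0.031 to 0.0048. In the last Psmb5 ran from -0.0058 to 0.064, Psmb7 from -0.093 to 0.097, Psme1 from -0.041 to 0.0056 and Psme2 from -0.059 to 0.0013. The cause was not tested for any of these changes. Depth limited Psme4 and Psme2b most, which rest on about 169 and 151 reads in their lowest library, and 3 libraries a group limit all tests.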
